A study of Caenorhabditis elegans with 6 samples.

Results

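The astacins of Caenorhabditis elegans (nas genes, for nematode astacin) are secreted zinc metalloproteases. The 33 genes described here are those measured on the array whose symbol begins with nas- or is dpy-31, hch-1 or toh-1, leaving out nas-36 and nas-37, and each is represented by its brightest probe, judged by the mean log2 intensity over arrays and channels. They are 33 of 18999 features tested, 17889 of which were named genes. RefSeq (assembly WBcel235, used for names and for which genes lie side by side) lists 37 protein-coding genes under the same names, and nas-6, nas-12, nas-13 and nas-23 were not analysed here. Of the 33 genes, 32 had 1 probe and nas-9 had 2.

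Expression was measured in whole nematodes of the wild-type strain N2, reared at 24 °C from synchronized eggs on NGM agar with Escherichia coli OP50 as food. Agar of the CPF+DZN group held chlorpyrifos (CPF) at 0.5 mg/L and diazinon (DZN) at 1 mg/L, both organophosphates added in acetone, and the control group had the same amount of acetone alone. Samples of both groups were hybridised together on 6 arrays of 2 colours, with CPF+DZN in Cy5 on 3 arrays and in Cy3 on the other 3. The labels describe L3/L4 nematodes aged 72 h, whereas the methods of the study give a shorter time and late L3. The age and stage of the nematodes are therefore uncertain.

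Astacins carry a catalytic domain that binds zinc, made as an inactive proenzyme. In animals they cut extracellular proteins: procollagens, egg coats, growth factor inhibitors and food proteins. In C. elegans DPY-31 trims the cuticle procollagen SQT-3, HCH-1 lets the larva out of the eggshell, and NAS-36 and NAS-37 act at the molt, when the old cuticle is shed. The family falls into subgroups by the domains that follow the catalytic one: none in subgroup I, ShK toxin-like domains in II, EGF-like and CUB domains in III, these with an ShK domain in IV, a thrombospondin type repeat in V, and the repeated EGF and CUB domains of tolloid proteases in VI.

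Whole-array values bear on all results below. A spot counted as well above background if the median of its foreground was over 2 background SDs brighter than that of its background. This held for 44.1 to 54.9% of C. elegans spots with CPF+DZN and for 47.9 to 58.1% in control channels. Between array pairs, log2 ratios correlated across genes with r between 0.237 and 0.714, and the array with CPF+DZN in Cy5, replicate 3, stood apart with a mean r of 0.276. The scanner headers gave 6 control extract numbers but 5 mixture extract numbers, because Cy5 replicate 2 and Cy3 replicate 1 shared 1. Spread between these 6 arrays is all that the p-values measure, and the number of arrays limits the precision. For each gene, limma draws the variance towards a value common to all features, after a dye term. The p-values therefore do not follow from the SDs given beside them. Marker transcripts of oocytes and sperm were lower with CPF+DZN: 28 of 33 oocyte genes and 17 of 45 sperm genes fell, and none of either list rose. Over all features 7.13% fell and 6.74% rose in the same test.

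Whether the astacins responded to CPF+DZN was asked of each gene with a linear model of the 6 log2 ratios (limma, mixture effect and dye effect), with genes called at a Benjamini-Hochberg adjusted p under 0.05 over all features. With CPF+DZN, nas-3, nas-11 and nas-38 rose by 0.50 to 0.72 on the log2 scale and nas-20 fell by 1.05. The other 29 astacins were not called. The 3 higher genes were 9.09% of the family against 6.74% of all features, and the 1 lower gene was 3.03% against 7.13%, and shares this near those of the array as a whole are no result about the family. In either direction 13.9% of features were called. With loess replaced by median centring, the split of all calls moved from 1281 higher and 1355 lower to 679 higher and 3439 lower, and the astacin calls to nas-3 higher and nas-20 lower.

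**Figure D1:**
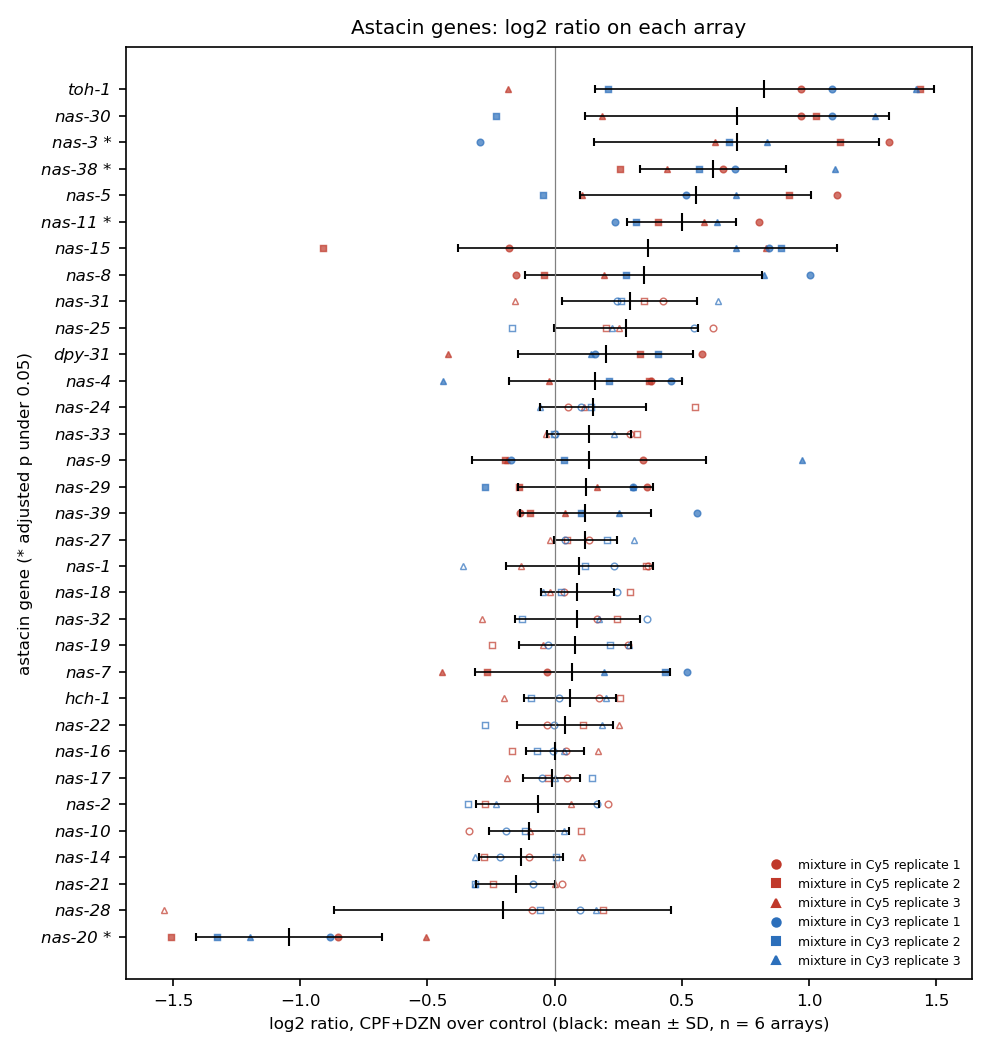
Log2 ratio of CPF+DZN over control (x axis) of the 33 astacin genes (y axis, sorted by mean). Points are the 6 arrays, open for genes that were not above background on at least 3 arrays in each group, and black bars are the mean ± SD (n = 6). Most genes lie close to 0, nas-20 lies below 0 on all arrays at -1.05, and nas-38 and nas-11 lie above 0 on all arrays.

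How much of the family could be measured differed by gene. On at least 3 arrays in each group, 15 astacins were well above background, and these held all 4 called genes. Their median log2 ratio was 0.35, with 14 of 15 above 0, beside a median of 0.0020 over the 10098 features that met the same condition. Of the 15, 3 rose (20%, against 11.7% of those features) and 1 fell (6.67%, against 11.7%). A further 11 were not well above background on any array in either group: nas-2, nas-10, nas-16, nas-17, nas-18, nas-19, nas-24, nas-25, nas-27, nas-33 and hch-1, with log2 ratios between -0.10 and 0.28. Near background a ratio is pulled towards 0, so these values say little about transcript change. Over all 33 genes the median log2 ratio was 0.12, and 26 were above 0.

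nas-20, a subgroup III astacin, was the only member called lower. Its normalized log2 intensity ran from 8.16 to 9.41 with CPF+DZN (median 8.57) and from 9.44 to 10.04 in the control (median 9.68). Every mixture value thus lay below every control value, a separation seen in 1.05% of features and in no other astacin. Its log2 ratio was -1.05 ± 0.37 (SD, n = 6 arrays, limma adjusted p = 0.00521), a 2.06-fold fall. The ratio was below 0 on all 6 arrays, as it was for 8.62% of features. The fall was smallest on Cy5 replicate 3 (-0.51) and largest on Cy5 replicate 2 (-1.51).

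**Figure D2:**
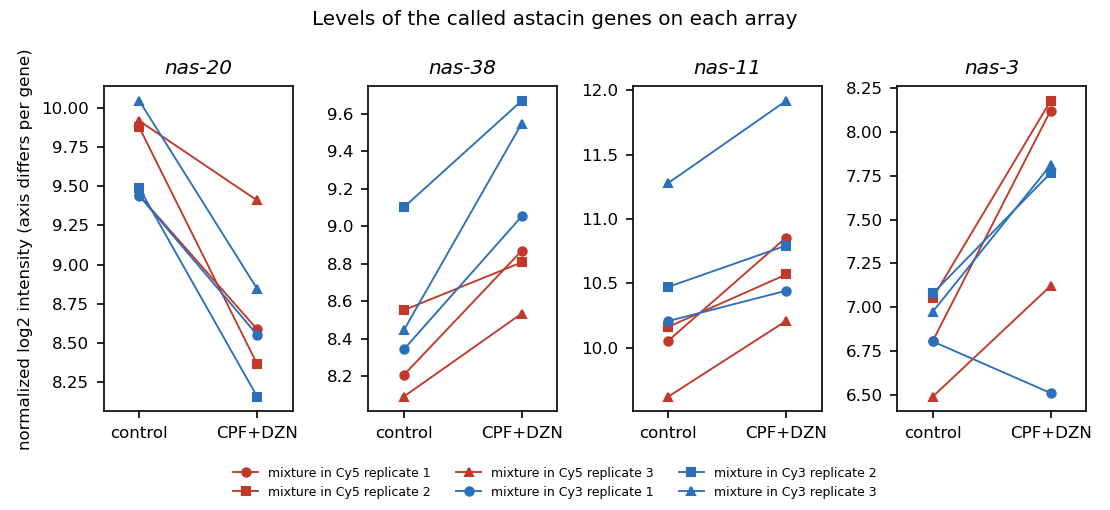
Normalized log2 intensity (y axis, a separate scale for each gene) of the 4 called astacins in the control and CPF+DZN channels of each array; lines join the 2 channels of 1 array. All 6 lines of nas-20 go down and its groups do not overlap, all 6 of nas-38 and nas-11 go up, and nas-3 goes up on 5 of 6.

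In RNA of whole nematodes, fewer cells of a type and less RNA per cell cannot be told apart. The germ line markers that fell alongside nas-20 are given here for that reason. The 33 oocyte markers had a median log2 ratio of -1.17, with array medians from -2.05 to -0.15, and their median log2 level ran from 8.77 to 10.5 with CPF+DZN and from 10.8 to 11.2 in the control. The 45 sperm markers had a median of -0.42, with array medians from -0.93 to -0.08, and levels of 7.81 to 8.41 against 8.29 to 8.93. Among them, msp-38, msp-51, msp-56, msp-59 and msp-76 held saturated pixels in all 6 control channels, so their ratios may be compressed. Not well above background in either group were cav-1 and chs-1 among the oocyte markers and msp-10, msp-36, msd-2, spe-8, ssp-9 and try-5 among the sperm markers. On Cy5 replicate 3, where nas-20 fell least, both lists were also nearest to 0. So was the median of the yolk genes, which are made in the intestine (-0.37). The array as a whole stood apart, with a mean r of 0.276 with the others. Whether its small values are particular to germ line markers was not tested. The part of germ line content in the nas-20 value was not tested.

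nas-20, nas-21 and nas-22 lie side by side with no other protein-coding gene between them. nas-21 had a log2 ratio of -0.15 ± 0.16 (SD, n = 6) and nas-22 of 0.04 ± 0.19, and each was well above background on 1 array in a single channel. The ratios of both neighbours are therefore compressed, and no likeness to nas-20 or difference from it can be read from them. In a second cluster of the same subgroup, nas-17, nas-18 and nas-19 adjoin each other, with nas-16 separated by 1 gene, and all 4 were within background throughout.

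nas-38, of subgroup V, was the called gene with a known role, in the sleep-like lethargus that accompanies each molt. Its log2 intensity ran from 8.54 to 9.67 with CPF+DZN (median 8.96) and from 8.09 to 9.10 in the control (median 8.40). The groups overlapped across arrays, but within each array the mixture channel was the brighter, as was so for 8.76% of features. The log2 ratio was 0.62 ± 0.29 (SD, n = 6, limma adjusted p = 0.0104, 1.54-fold), lowest on Cy5 replicate 2 (0.25) and highest on Cy3 replicate 3 (1.10). Under median centring it was 0.32 with an adjusted p of 0.0813.

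nas-11, of subgroup II, was also brighter with CPF+DZN on all 6 arrays. It ran from 10.21 to 11.92 with CPF+DZN (median 10.68) and from 9.62 to 11.28 in the control (median 10.18). Its log2 ratio was 0.50 ± 0.21 (SD, n = 6, limma adjusted p = 0.0149, 1.41-fold), between 0.24 and 0.80 on single arrays. The difference between channels was therefore steadier than the level, which spanned 1.66 among control channels. The call was lost without Cy5 replicate 1 (adjusted p = 0.0507), Cy3 replicate 2 (0.0555) or Cy3 replicate 3 (0.0654), and under median centring (log2 ratio 0.19, adjusted p = 0.233).

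nas-3, of subgroup I and so without a further domain, was well above background on 5 arrays with CPF+DZN and on 4 in the control, where the other called genes were on all 6 in both. Its log2 intensity was 6.51 to 8.18 with CPF+DZN (median 7.79) and 6.49 to 7.08 in the control (median 6.89). The groups overlapped only through the mixture value of Cy3 replicate 1, the single array with a ratio below 0 (-0.29). That array shared its mixture extract number with Cy5 replicate 2, which gave the highest mixture value (8.18) and a ratio of 1.12. The log2 ratio was 0.72 ± 0.56 (SD, n = 6, limma adjusted p = 0.0278, 1.64-fold). Leaving out Cy5 replicate 1, Cy5 replicate 2, Cy3 replicate 2 or Cy3 replicate 3 ended the call, with adjusted p from 0.0867 to 0.109.

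Just outside the threshold were toh-1, nas-5 and nas-30, with log2 ratios from 0.55 to 0.82 and SDs from 0.45 to 0.67. toh-1, named for its likeness to tolloid, ran from 8.33 to 10.7 with CPF+DZN (median 9.90) and from 8.12 to 9.60 in the control (median 9.17). Its log2 ratio was 0.82 ± 0.67 (SD, n = 6, limma adjusted p = 0.0508, 95% interval 0.30 to 1.35) and was above 0 on 5 of 6 arrays. nas-30, of subgroup III, ran from 7.76 to 9.14 (median 8.32) against 7.22 to 8.42 (median 7.62), a log2 ratio of 0.72 ± 0.60 (adjusted p = 0.0585). nas-5, of subgroup I, ran from 6.85 to 8.13 (median 7.61) against 6.74 to 7.42 (median 6.88), a log2 ratio of 0.55 ± 0.45 (adjusted p = 0.0510). The groups of all 3 genes overlapped. Cy5 replicate 3, the array that stood apart, gave the lowest or second lowest difference for toh-1 (-0.18), nas-30 (0.19) and nas-5 (0.11). Without it, or with the slide series as a block, 8 astacins were called higher, and the share over all features was 11.4% in place of 6.74%. The 8 were these 3 at log2 ratios of 1.05, 0.85 and 0.71, the 3 above, dpy-31 and nas-31.

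The best known astacins were not called. dpy-31, the procollagen C-proteinase, ran from 8.39 to 10.1 with CPF+DZN (median 8.99) and from 8.14 to 9.75 in the control (median 8.98), and the groups overlapped almost fully. Its log2 ratio was 0.20 ± 0.34 (SD, n = 6, limma adjusted p = 0.381), with a 95% interval from -0.10 to 0.50. That value rests on which arrays enter: it was 0.35 (adjusted p = 0.0246) without Cy5 replicate 3, where its ratio was -0.42, and -0.11 under median centring and in the authors' value table. hch-1, the hatching enzyme, was not well above background in either group on any array, so no statement on its change can be made.

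nas-7, which with nas-6 shapes the grinder of the pharynx, had a log2 ratio of 0.07 ± 0.38 (SD, n = 6, limma adjusted p = 0.683, 95% interval -0.13 to 0.27). It was the astacin whose level varied most among arrays of 1 group. Its log2 intensity ran from 6.37 to 9.16 in the control (median 7.94), a span of 2.79 that was larger than that of 91.5% of the features well above background, and from 6.34 to 8.90 with CPF+DZN (median 8.30). Both channels of an array moved together, so the ratio spanned 0.96. The gene was within background on Cy5 replicate 1 and Cy3 replicate 3 in both channels. For nas-39, the worm relative of tolloid, the log2 ratio was 0.12 ± 0.26 (adjusted p = 0.416, 95% interval -0.07 to 0.32).

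Among the remaining members with larger ratios, nas-8 and nas-15 of subgroup II gave different averages in the 2 dye orientations. nas-8 averaged -0.00047 with CPF+DZN in Cy5 and 0.70 with it in Cy3, for a log2 ratio of 0.35 ± 0.47 (limma adjusted p = 0.0733). nas-15 averaged -0.085 and 0.82, for 0.37 ± 0.74 (adjusted p = 0.270). Its ratio was -0.18 and -0.91 on Cy5 replicates 1 and 2, the arrays of the earlier slide series. On Cy5 replicate 3, of the later series like all Cy3 arrays, it was 0.83. With only 1 Cy5 array in the later series, dye and slide series cannot be told apart for nas-15. No astacin passed the test of the dye effect, which 4 features in all passed. nas-4 (0.16 ± 0.34, adjusted p = 0.480) and nas-9 (0.13 ± 0.46, adjusted p = 0.656) differed by less than the spread between arrays, and the second probe of nas-9 gave 0.10 ± 0.15.

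By subgroup, the 4 calls lay in 4 subgroups. These groups are too small for a single call to be compared with the 6.74% higher and 7.13% lower of all features. Subgroup I had 1 of 5 measured genes higher and a median log2 ratio of 0.16, subgroup II had 1 of 7 higher with a median of 0.13, and subgroup V without nas-36 and nas-37 had 1 of 4 higher with a median of 0.17. Subgroup III had 1 of 13 lower and none higher, with a median of 0.08, and 7 of its 13 genes were within background on every array. Neither gene of subgroup IV was called. toh-1, for which no nas number was at hand, was placed in no subgroup and is not in these counts. Array by array, the median log2 ratio of the 33 astacins lay between -0.018 on Cy5 replicate 3, with 16 genes above 0, and 0.20 on Cy3 replicate 3, with 25 above 0.

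Likeness between astacins was described by Pearson's r of the log2 ratios over the 6 arrays, which share extracts and slides. nas-3 was nearest to nas-33 (0.733), a gene within background on every array, and then to nas-11 (0.708). nas-38 was nearest to nas-9 (0.861), which was within background in both channels of Cy5 replicates 1 and 2. nas-20 was nearest to nas-16 (0.914), nas-21 (0.845) and nas-2 (0.812), all close to background. Nothing is read from these values.

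**Figure D3:**
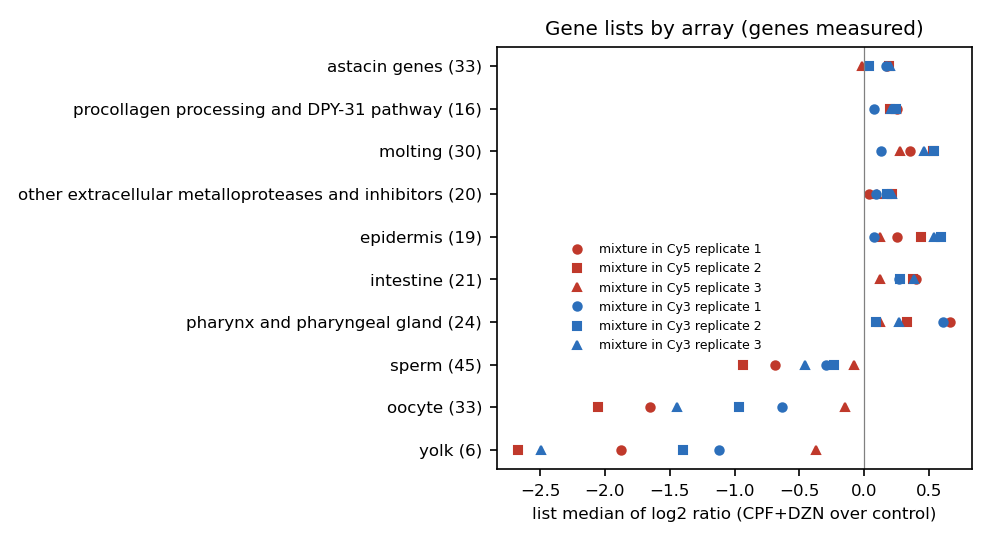
Median log2 ratio of CPF+DZN over control (x axis) of each gene list on each of the 6 arrays, with the number of genes measured in brackets. The astacin medians lie between -0.018 and 0.20, the molting medians between 0.13 and 0.54, and the oocyte medians between -2.05 and -0.15.

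The genes around the astacins were compared through 3 lists, on the same background of 6.74% of features higher and 7.13% lower. Of 30 molting genes 12 rose and none fell, with a median log2 ratio of 0.42 and array medians from 0.13 to 0.54. Among them were mlt-3 (0.62 ± 0.25, limma adjusted p = 0.0125), sym-1 (0.81 ± 0.45, 0.0101), an extracellular leucine-rich repeat protein, noah-2 (0.62 ± 0.34, 0.0155), of the apical matrix, and myrf-1 (0.80 ± 0.54, 0.0142), a transcription factor for larval development. The molting astacins were not called: nas-37 stood at -0.01 ± 0.28 on the log2 scale (adjusted p = 0.963), and nas-36, at -0.02 ± 0.14 (0.897), was well above background on 1 control channel.

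Of 16 genes for cuticle procollagen processing and the DPY-31 pathway 1 rose and none fell, with a median log2 ratio of 0.22. The gene that rose was let-268, a procollagen lysyl hydroxylase (0.36 ± 0.21, limma adjusted p = 0.0432). The DPY-31 substrate sqt-3 (0.28 ± 0.51, 0.231), its partner collagen dpy-17 (-0.15 ± 0.27, 0.422) and the convertase bli-4 (-0.04 ± 0.17, 0.802) were not called. Of 20 other extracellular metalloproteases and inhibitors 5 rose and 1 fell, with a median log2 ratio of 0.16. Those with the smallest p were mig-6, a papilin of the extracellular matrix (0.53 ± 0.24, 0.0170), the matrix metalloproteases zmp-2 (0.41 ± 0.18, 0.0255) and zmp-4 (0.64 ± 0.52, 0.0352), all higher, and unc-71, an ADAM family protein, which was lower (-0.48 ± 0.29, 0.0278).

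Marker lists of all 5 somatic tissues had medians above 0, as had most bright astacins. Of all features 6.74% rose and 7.13% fell. Of 19 epidermis markers 9 rose and 1 fell (list median log2 ratio 0.42), the 1 being col-19 at -1.40. Of 21 intestine markers 9 rose and none fell (0.26). Of 24 genes listed for the pharynx 3 rose and 1 fell (list median 0.35). The 1 was gna-2 at -1.07, a gene whose transcript need not come from the pharynx. Of 20 muscle markers 9 rose and none fell (0.34), and of 23 neuron markers 1 rose and 1 fell (0.25). All 6 yolk genes, made in the intestine, fell (-1.64). Saturated pixels in 4 control channels each may have compressed the ratios of vit-3, vit-4 and vit-5. The median log2 level of the 6 yolk genes in the control was high, from 14.3 to 15.4 by array. The stage of the nematodes was not tested from such levels. Whether the astacin values follow the share of these tissues in the RNA was not tested.

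**Figure D4:**
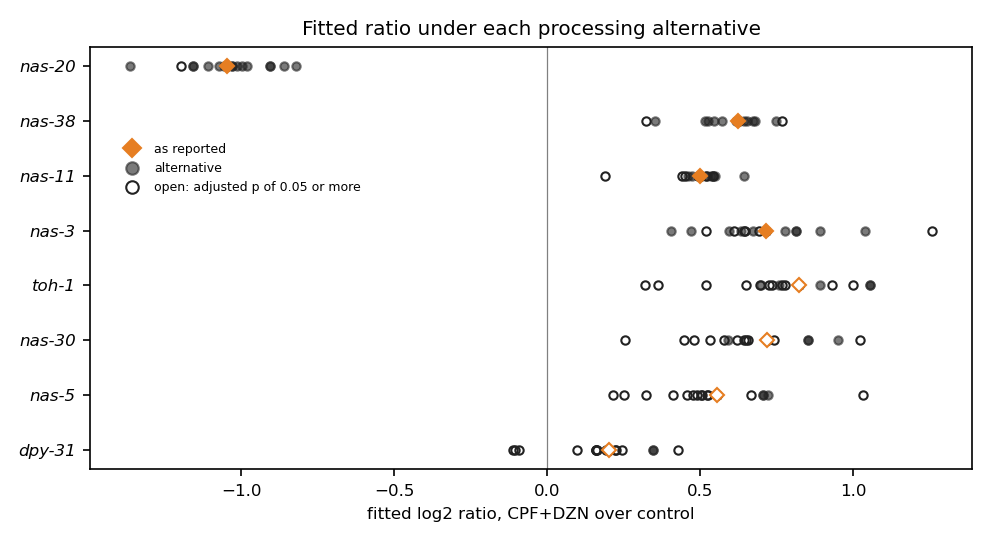
Fitted log2 ratio of CPF+DZN over control (x axis) of 8 astacins (y axis) as reported (orange) and under each processing alternative (grey), open where the adjusted p was 0.05 or more. nas-20 stayed between -1.36 and -0.82 and nas-38 between 0.32 and 0.77, while dpy-31 lay on both sides of 0.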

How the data were processed

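Each array held 23232 spots, 22490 of them C. elegans oligonucleotides. Per channel, the deposited scanner files hold spot intensity (foreground median and mean, background median and SD) and saturated pixels in percent, which per the file headers come from the scanner software without normalization. A value table of log2 ratios made by the authors, set against the scanner values, ran as mixture over control at a lower scale (slopes of 0.727 to 0.797 in Cy5 and -0.827 to -0.776 in Cy3, column medians from -0.0045 to -0.00010). Part of its processing is unknown, and it served as an alternative. The submitters' processing notes name limma 3.2.3. Per the methods of the study, arrays were normalized by loess and Aquantile. Background correction and flag meanings were not given in the sources used here. No spot was dropped by flag.

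Here, foreground medians were corrected with normexp (offset 50), ratios were normalized by loess with weight 0 for control spots, Aquantile was applied between arrays, and ratios of dye-swapped arrays were reversed to give mixture over control (limma 3.58.1, R 4.3.3). A mixture and a dye coefficient were fitted with lmFit and eBayes and p-values adjusted over 18999 features, two-sided. No astacin spot was saturated. Errors are SDs over 6 arrays, 95% intervals are those of the fit. Genes named with values are the called members, those with a known role and the 6 others with the largest ratio among those well above background, and of each further list up to 4 called genes with the smallest p and sqt-3, dpy-17, bli-4, nas-36 and nas-37. The neighbours nas-21 and nas-22, and nas-24, nas-28 and nas-31, were named after their values were seen. The members and all lists were chosen with earlier results of these data known. The effect of 22 alternatives is given at the end.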

Additional observations from a re-analysis of the deposited data

Results flagged for a closer look

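nas-7 had opposite signs in the 2 dye orientations: its log2 ratio averaged -0.25 on the 3 arrays with CPF+DZN in Cy5 and 0.38 on the 3 with it in Cy3, a difference of -0.63. The limma test of its dye effect gave an adjusted p of 0.540, and 577 features (3.04%) showed such opposite signs on all 6 arrays. Of 34 results checked for a single array far from the other 5, 2 had one, and chance gives about 1 in 20. On Cy5 replicate 3 the log2 ratio of nas-28 was -1.53, against -0.09 to 0.19 on the other arrays, and this was the only array on which its control channel was well above background. On Cy5 replicate 2 the ratio of nas-24 was 0.55, against -0.06 to 0.14, with the gene within background on every array.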

How the results depend on the processing

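nas-20 kept its call in 20 of 22 alternatives and nas-38 in 19 of 22, nas-3 in 14 of 22 and nas-11 in 13 of the 21 that measured it, and none of these 4 changed sign. toh-1 and nas-30 were called in 7 each, nas-5 in 5, dpy-31 and nas-31 in 2 each, nas-15 and nas-28 in 1 each. The astacins called higher numbered 5 with foreground means, print-tip loess or the arrays of the shared scan day (8.72, 7.28 and 8.38% of all features higher), 6 without the dye term (6.53%), 6 (of 15 genes, median log2 ratio 0.350) without dim probes (13.6%) and 1 under median centring (3.57%), where 4118 features were called. With the slide series as a block they numbered 8 (11.4%), and 4609 features were called, by construction the same fit as without Cy5 replicate 3. With the replicate block 1 astacin was higher (nas-38, with 2.79% of features) and 950 features were called; same-numbered arrays' deviations correlated at -0.107, -0.0065 and -0.233, so the numbers do not pair arrays. On the arrays of the later slide series 2 astacins were higher (nas-15 and nas-38) and 2 lower (nas-20 and nas-28), with 891 features called. Plain background subtraction gave 0 higher and 0 lower (10 and 2 at an unadjusted p under 0.05), a median of 0.374 and 153 features called, and an ordinary linear model 0 and 0 (5 and 1 unadjusted), with 109 called. Leaving out 1 array gave 1 to 8 higher, 1 lower, a median of 0.073 to 0.14, and 535 to 4609 features called. The earlier slide series held 1 orientation only and was not fitted alone. Signal over background limits the 11 astacins that were within background throughout. It also limits the 7 between these and the 15 well above background, nas-28 and nas-31 among them.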
